A study of Homo sapiens with 12 samples.

Results

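Mitotic kinases are the enzymes that drive a cell into and through division, and 10 of them were followed here: PLK1, PLK4, AURKA, AURKB, BUB1, BUB1B, TTK, CDK1, NEK2 and MELK. They were chosen by name, with earlier results of these data known. Each symbol matched 1 Ensembl gene, so they make up 10 of the 20263 genes in the deposited table. The mRNA came from U87 (also written U-87 MG), a long-established cell line from a human glioblastoma, and all 12 libraries were made after culture in 1% O2. The record of the sequencing gives 72 h of hypoxia, whereas the methods of the study state a shorter exposure for mRNA detection in general. There were 4 groups of 3 libraries: cells with an empty vector (vector), cells without HIF1α (HIF1α-ko), cells without HIF2α (HIF2α-ko) and cells without both (HIF1α/2α-ko). No normoxic group was included, the labels do not say how the knockouts were made or whether a group was 1 clone, and nothing says that replicates were separate cultures, so p-values measure the spread between these libraries, which may be technical. The vector columns were assigned as the 3 columns whose names carry no knockout code.

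As background, HIF1α and HIF2α are the oxygen-regulated subunits of the hypoxia-inducible transcription factors, and the proteins are destroyed when oxygen is plentiful. The mitotic kinases are transcribed mostly late in the cell cycle, under factors that bind CCAAT boxes (the NF-Y complex) and the CHR element, a cell cycle motif read by the MuvB complex with B-MYB and FOXM1. CDK1, PLK1 and AURKA act at entry into mitosis, AURKB at the centromere, BUB1, BUB1B and TTK in the spindle checkpoint that holds anaphase until chromosomes are attached, PLK4 and NEK2 at the centrosome, and MELK in processes that are less settled. Their high mRNA is a usual mark of dividing cells in glioblastoma. In a bulk sample, fewer dividing cells and less mRNA in each dividing cell cannot be told apart.

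The sites that carry the letters of the late cell cycle motifs are shown first, and their part in the changes below was not tested. CCAAT box and CHR element here mean matches to the letters CCAAT and TTTGAA. RefSeq promoter windows (GRCh38.p14, 250 bases before to 50 bases after a start site) were found for 8 of the 10 members, in 12 windows; AURKA and TTK had no entry. Capitals mark the matched letters, positions count from the start base as 0, and each site of 30 bases is written on the strand of its gene, so that ATTGG is CCAAT and TTCAAA is TTTGAA on the opposite strand. PLK1 held 1 CCAAT box and 1 CHR element upstream of its start, at chr16:23678804-23678833 and chr16:23678848-23678877 (plus strand). CDK1 held both motifs close together at chr10:60778393-60778422 and a pair of CHR elements around the start at chr10:60778464-60778493 (plus strand). BUB1B held a CHR element at chr15:40161034-40161063 (plus strand). BUB1 held CCAAT boxes in both orientations at chr2:110678113-110678142 (minus strand). NEK2 held a CCAAT box at chr1:211675638-211675667 (minus strand), and AURKB held 1 at chr17:8210361-8210390 (minus strand). PLK4 held a CHR element after its first start site at chr4:127880913-127880942 (plus strand).
PLK1 CCAAT box: aaatccccgcggCCAATcagtggcgcgcag
PLK1 CHR element: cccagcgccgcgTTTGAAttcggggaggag
CDK1 CCAAT box and CHR element: ggctctgATTGGctgcTTTGAAagtctacg
CDK1 CHR elements at the start: gTTTGAAactgctcgcacttggcTTCAAAg
BUB1B CHR element: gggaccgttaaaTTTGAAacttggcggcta
BUB1 CCAAT boxes: ATTGGccaaccttctgccgccgccaCCAAT
NEK2 CCAAT box: gcccaccgcctgCCAATagactgcgagatc
AURKB CCAAT box: accagcgcccagATTGGggctagtgtgctg
PLK4 CHR element: ggcaagcggcgggagattTTCAAAatggga

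On either strand, CCAAT was found in a window of 6 of the 8 members (AURKB, BUB1, CDK1, NEK2, PLK1 and PLK4), against 34.6% of all 35116 promoter windows of the same length. TTTGAA was found for 4 members (BUB1B, CDK1, PLK1 and PLK4), against 15.2% of all windows, and a window with both was found for CDK1 and PLK1, against 5.9%. These shares are not directly comparable, since a member with several windows had more chances, and the matched letters did not overlap between the motifs. Counted by window, CCAAT was in 8 of the 12 member windows, TTTGAA in 5 and both in 3. The 2 AURKB windows overlapped, so the same AURKB sites were counted in both, also for the HIF letters below. The core letters of a HIF site, ACGTG or GCGTG, were found for 5 members (AURKB, BUB1B, MELK, PLK1 and PLK4). They were in 6 of the 12 member windows and in 48.4% of all windows, so these letters are common in promoters. In PLK1 and MELK the ACGTG matches on both strands were 1 palindrome, CACGTG, shown here at chr16:23678679-23678708 and chr9:36572645-36572674 (plus strands). The MELK window held neither TTTGAA nor CCAAT. A match describes letters and does not show binding.
PLK1 HIF core: cccaggctatccCACGTGttcgggcgtccg
MELK HIF core: tCACGTGccctccggggcaagaccaaggcc

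The levels are in TPM, a unit corrected for transcript length and brought to 1 common total per library. Genes can thus be compared within a library, but the sequencing depth cannot be read back. The depth of the libraries is therefore unknown. Vimentin (VIM, 5635 to 14690 TPM), CD44 (399 to 1412 TPM) and SPARC were high, as in mesenchymal glioma lines, whereas the glial marker GFAP stayed at or below 0.639 TPM and the neural stem cell factor SOX2 at or below 0.0622 TPM. OLIG2, another glial factor, was listed at 0.884 to 19.2 TPM, and NES, which encodes the neural stem cell filament nestin, at 2.64 to 6.17 TPM. Leucocyte markers stayed at or below 0.763 TPM, epithelial ones at or below 0.575 TPM and the endothelial CDH5 at or below 3.63 TPM, and CDKN2A, whose locus is deleted in this line, was listed at 0 in all 12 libraries. HIF1A mRNA averaged 124 ± 23.5 TPM in vector and 48.5 ± 9.35 TPM in HIF1α-ko (SD, n = 3 each), against 86.8 ± 18.1 TPM without HIF2α and 75.5 ± 11.9 TPM without both. EPAS1, which encodes HIF2α, averaged 322 ± 31.5, 265 ± 20.2, 107 ± 17.0 and 117 ± 14.4 TPM in the same order. HIF1A changed by -1.34 in HIF1α-ko (adjusted p = 0.000851) and EPAS1 by -1.59 in HIF2α-ko (adjusted p = 0.000375) on the log2 scale of TPM + 1. Between the groups that lack HIF1α, HIF1A was 0.64 higher on the log2 scale in the dual knockout (adjusted p = 0.0287, limma). Both transcripts remained in every library, and an mRNA level does not read an edit.

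All 10 members were higher in the mean of the vector group than in any knockout group, and HIF1α-ko had the lowest mean for 9 of them, PLK4 being lowest in HIF1α/2α-ko. The order vector, HIF2α-ko, HIF1α/2α-ko, HIF1α-ko held for 7 members. Against vector, 10 of 10 members fell in HIF1α-ko, 6 did so in HIF2α-ko and 9 in the dual knockout, by limma on log2(TPM + 1) with Benjamini-Hochberg adjustment at 0.05 over 11731 genes. The same rule called 8.77%, 5.89% and 14.8% of all genes lower and 17.3%, 5.07% and 31.8% higher. Where 3 changes or p-values follow each other they are in this order of knockouts, and changes are log2 changes of TPM + 1 from vector. The 3 comparisons share the vector libraries and are not independent of each other. No member was called higher against vector, and the count was also 0 at an unadjusted p under 0.05. The median log2 change of the members was -1.39, -0.76 and -1.09, beside 0.18, -0.04 and 0.21 over all genes tested. The filter asked for 1 TPM in 3 libraries. TTK passed it through its 3 vector libraries only and PLK4 through 6 libraries, 3 of them vector, so TTK had to be higher in vector to be tested at all, and the counts are no support by themselves. Without TTK they were 9, 6 and 8 of 9 members.

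**Figure D1:**
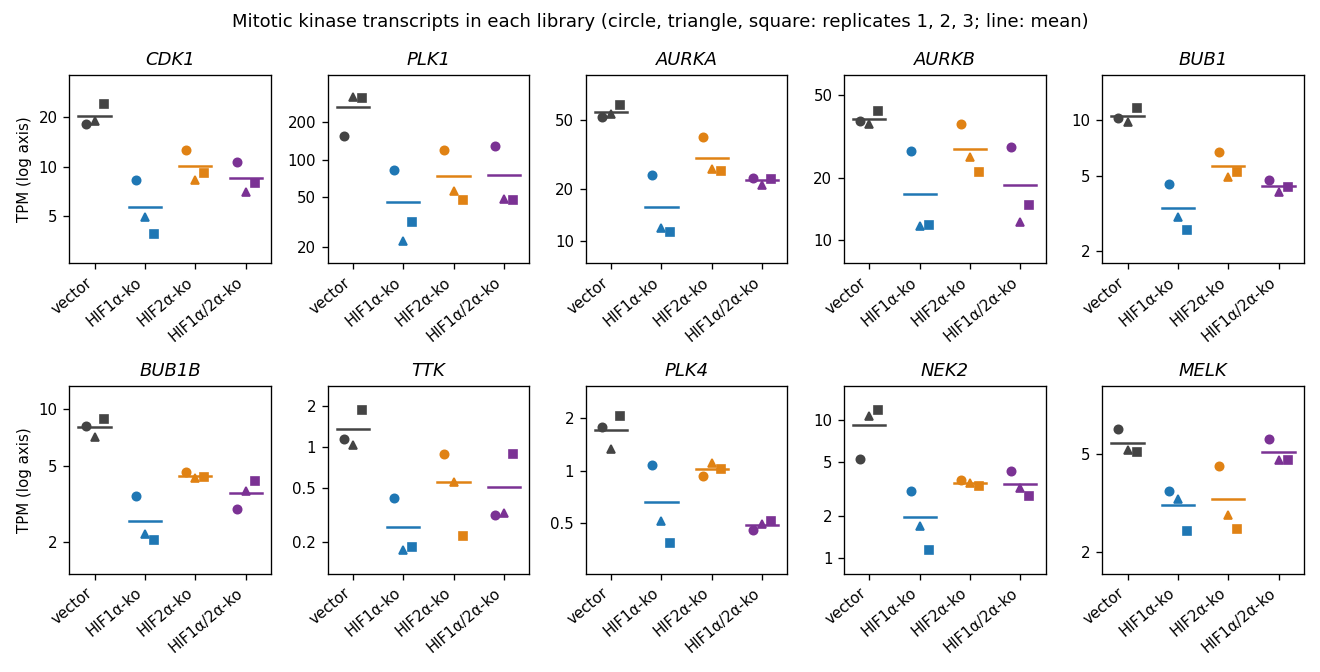
TPM of the 10 mitotic kinases in each of the 12 libraries, 1 panel per gene, on a log axis that differs between panels; circles, triangles and squares are replicates 1, 2 and 3 and lines are group means. The 3 HIF1α-ko libraries lie below the 3 vector libraries in every panel, and MELK alone overlaps between vector and HIF1α/2α-ko.

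The kinases of mitotic entry, CDK1, PLK1 and AURKA, fell in all 3 knockouts. CDK1 (chr10:60778331-60794852), the cyclin B-dependent kinase that triggers mitosis, stood at 18.2, 19.1 and 24.3 TPM in vector and 8.27, 4.92 and 3.86 TPM in HIF1α-ko. With HIF2α alone removed the values were 12.7, 8.31 and 9.14 TPM, and with both removed 10.7, 7.03 and 7.96 TPM. The lowest vector library lay above every knockout library. Its log2 changes were -1.73, -0.97 and -1.18, each ± 0.25 (SE), with adjusted p = 0.000788, 0.0268 and 0.00206.

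PLK1 (chr16:23677656-23690367), which activates the CDK1 switch and builds the spindle poles, was the most abundant member in all 4 groups. It measured 156, 322 and 316 TPM in vector and 82.4, 22.3 and 31.8 TPM in HIF1α-ko. In HIF2α-ko cells it stood at 121, 56.3 and 47.4 TPM, in HIF1α/2α-ko cells at 130.0, 48.5 and 47.8 TPM. Replicate 1 was the lowest vector library and the highest library of each knockout group, yet the groups did not overlap with vector. The log2 changes of PLK1 were -2.66, -1.86 and -1.89, each ± 0.52 (adjusted p = 0.00381, 0.0393 and 0.0102). With replicate 1 left out of every group, a setting chosen after seeing the data, they were -3.53, -2.60 and -2.70. PLK1 carried 36.1% to 69.0% of the summed TPM of the 10 members in a library.

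AURKA (chr20:56369389-56392337), the kinase of centrosome maturation that TPX2 activates on the spindle, measured 52.1, 54.2 and 60.5 TPM in vector and 24.0, 11.9 and 11.2 in HIF1α-ko. The HIF2α-ko libraries gave 39.6, 26.0 and 25.3 TPM, those of HIF1α/2α-ko 23.2, 21.1 and 22.9 TPM. The HIF1α/2α-ko libraries were the tightest, and 2 of the 3 HIF1α-ko libraries lay below all of them. The log2 changes of AURKA were -1.84, -0.88 and -1.27, each ± 0.25 (adjusted p = 0.000583, 0.0408 and 0.00128).

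AURKB (chr17:8204733-8210600), the enzyme of the chromosomal passenger complex that corrects faulty attachments, stood highest in replicate 1 of each knockout group. It measured 37.4, 36.5 and 41.8 TPM in vector and 26.9, 11.7 and 11.8 TPM in HIF1α-ko. With HIF2α alone removed the values were 36.2, 25.1 and 21.4 TPM, and with both removed 28.2, 12.3 and 14.9 TPM. In HIF2α-ko replicate 1 almost reached the lowest vector library. AURKB changed by -1.25 ± 0.33 in HIF1α-ko (adjusted p = 0.0175) and by -1.11 ± 0.33 in the dual knockout (adjusted p = 0.0165), while its HIF2α-ko change of -0.50 (95% interval -1.23 to 0.23) did not pass (adjusted p = 0.367). When replicate 1 was left out of every group it was -0.73 and passed (adjusted p = 0.00512). The HIF1α-ko call was lost without vector replicate 3 (adjusted p = 0.0618) or without HIF1α-ko replicate 2 (0.0743) or 3 (0.077), and the HIF1α/2α-ko call without HIF1α/2α-ko replicate 2 (0.0747) or 3 (0.0591). Without the filter neither passed (adjusted p = 0.0642 and 0.0615).

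BUB1 and BUB1B of the spindle checkpoint fell in all 3 knockouts. BUB1 (chr2:110637698-110678114), which marks the centromere and recruits the checkpoint, measured 10.2, 9.74 and 11.6 TPM in vector and 4.51, 3.02 and 2.58 TPM in HIF1α-ko. In HIF2α-ko cells it stood at 6.77, 4.98 and 5.23 TPM, in HIF1α/2α-ko cells at 4.78, 4.13 and 4.40 TPM. Its log2 changes were -1.42, -0.80 and -1.08, each ± 0.18 (adjusted p = 0.000483, 0.018 and 0.000503). The vector libraries stood clear of all 9 knockout libraries. BUB1B (chr15:40161023-40221136), which encodes BubR1, a part of the inhibitor of anaphase, measured 8.14, 7.14 and 8.89 TPM in vector and 3.48, 2.20 and 2.03 TPM in HIF1α-ko. The HIF2α-ko libraries gave 4.65, 4.33 and 4.38 TPM, those of HIF1α/2α-ko 2.98, 3.68 and 4.18 TPM. Its log2 changes were -1.36, -0.73 and -0.98, each ± 0.18 (adjusted p = 0.000533, 0.0239 and 0.000867). BUB1B overlaps the read-through gene BUB1B-PAK6 on the same strand, listed at 0 to 3.54 TPM, so reads could have been split between them.

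TTK (chr6:80003887-80042527), also called MPS1, the kinase at the top of the checkpoint, was a low transcript. It measured 1.14, 1.03 and 1.88 TPM in vector and 0.417, 0.175 and 0.184 TPM in HIF1α-ko. With HIF2α alone removed the values were 0.884, 0.547 and 0.220 TPM, and with both removed 0.318, 0.324 and 0.878 TPM. All 9 knockout libraries lay below 1 TPM and all 3 vector libraries above it, which is how TTK passed the filter, so a fall was favoured by its selection and its values are a description. Its mean in HIF1α-ko was 0.191 of the vector mean, but the pseudocount of 1 held the fitted change to -0.89 ± 0.21 (adjusted p = 0.00939), against -2.04 with a pseudocount of 0.1. In HIF1α/2α-ko it was -0.65 ± 0.21 (adjusted p = 0.0222), a call lost without HIF1α/2α-ko replicate 1 (adjusted p = 0.0624) or 2 (adjusted p = 0.0847), and in HIF2α-ko it was -0.61 (95% interval -1.06 to -0.16, adjusted p = 0.0824). Fitted without the filter, the adjusted p-values of TTK were 0.0256, 0.147 and 0.0488.

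Of the centrosome kinases, NEK2 fell in all 3 knockouts and PLK4 in 2. NEK2 (chr1:211658657-211675630), which loosens the link between centrosomes before mitosis, measured 5.22, 10.6 and 11.9 TPM in vector and 3.07, 1.70 and 1.15 TPM in HIF1α-ko. In HIF2α-ko cells it stood at 3.70, 3.47 and 3.31 TPM, in HIF1α/2α-ko cells at 4.27, 3.20 and 2.79 TPM. As for PLK1, replicate 1 was the lowest vector library, and it lay just above the highest knockout library. The log2 changes of NEK2 were -1.77, -1.12 and -1.16, each ± 0.28 (adjusted p = 0.00146, 0.0265 and 0.00535).

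PLK4 (chr4:127880861-127899195), the kinase that licenses centriole duplication, was the member for which HIF1α/2α-ko was lowest. It measured 1.78, 1.33 and 2.05 TPM in vector and 1.07, 0.517 and 0.385 TPM in HIF1α-ko. The HIF2α-ko libraries gave 0.932, 1.11 and 1.03 TPM, those of HIF1α/2α-ko 0.454, 0.496 and 0.514 TPM. The HIF2α-ko libraries lay between vector and HIF1α/2α-ko without overlapping either. PLK4 changed by -0.73 ± 0.17 in HIF1α-ko (adjusted p = 0.00901) and by -0.86 ± 0.17 in the dual knockout (adjusted p = 0.00126), and its change of -0.42 in HIF2α-ko (95% interval -0.78 to -0.05) did not pass (adjusted p = 0.133). With a pseudocount of 0.1 the changes of PLK4 were -1.35, -0.68 and -1.61. The HIF1α-ko call was lost by a small margin without HIF1α-ko replicate 3 (adjusted p = 0.0504).

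MELK (chr9:36572862-36677683), a kinase of the AMPK-related family named for its maternal embryonic expression, was the exception in HIF1α/2α-ko. It measured 6.36, 5.23 and 5.13 TPM in vector and 3.55, 3.30 and 2.45 TPM in HIF1α-ko. With HIF2α alone removed the values were 4.50, 2.85 and 2.49 TPM, and with both removed 5.78, 4.76 and 4.75 TPM. The HIF1α/2α-ko libraries overlapped vector and lay above every library of both single knockouts. MELK fell by 0.69 ± 0.20 in HIF1α-ko (adjusted p = 0.0234), a call lost without vector replicate 2 (0.0525) or 3 (0.0517) or without HIF1α-ko replicate 2 (0.0542) or 3 (0.104). It did not pass in HIF2α-ko (-0.64, 95% interval -1.07 to -0.22, adjusted p = 0.0535) or in HIF1α/2α-ko (-0.11, 95% interval -0.53 to 0.32, adjusted p = 0.677). The HIF2α-ko change of MELK did pass without a mean-variance trend (adjusted p = 0.047), with a replicate block on all 4 groups (0.0132), without replicate 1 of HIF2α-ko (0.0258) or of the dual knockout (0.0454), and when replicate 1 was left out of every group (0.00511).

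**Figure D2:**
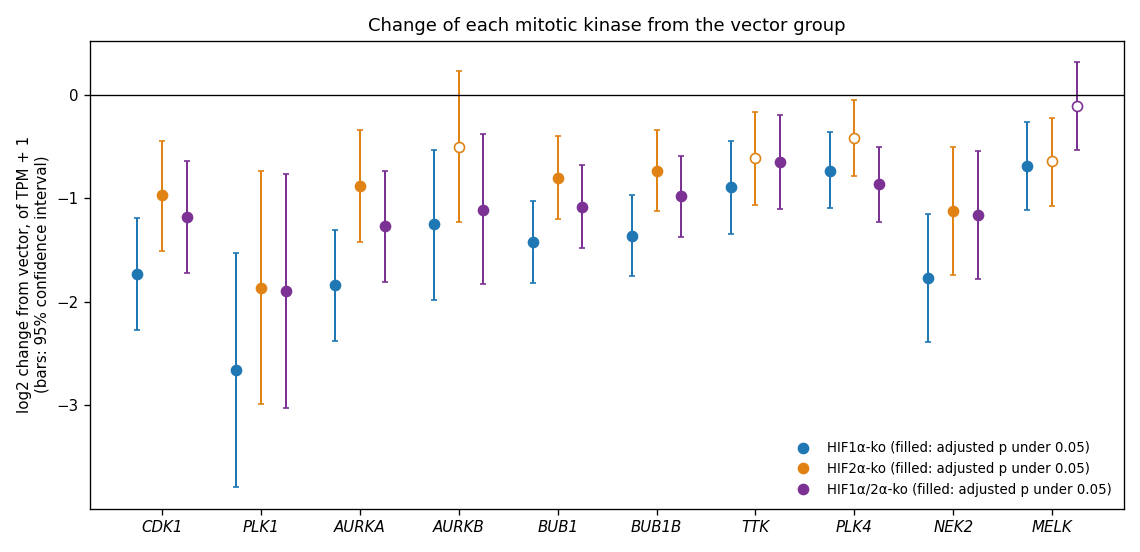
Log2 change of TPM + 1 from vector for each mitotic kinase in the 3 knockouts (n = 3 libraries a group); bars are 95% confidence intervals and filled points have a limma adjusted p under 0.05. The HIF1α-ko point is the lowest of the 3 for every kinase but PLK4, and the HIF1α/2α-ko point of MELK is the nearest to 0, at -0.11.

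The HIF2α-ko calls were the least stable of these comparisons. All 3 HIF2α-ko libraries lay below all 3 vector libraries for 10 of 10 members, where 18% of all genes tested did so, and the same was true for 10 members in HIF1α-ko (12.3% of genes) and 9 in HIF1α/2α-ko (17.4% of genes). TTK was below vector in all 3 by its way through the filter, and without it the counts were 9, 9 and 8 of 9 members in HIF2α-ko, HIF1α-ko and the dual knockout. Yet the 6 members called in HIF2α-ko (PLK1, AURKA, BUB1, BUB1B, CDK1 and NEK2) had adjusted p-values from 0.018 to 0.0408, and 9 members had an unadjusted p under 0.05. The count was 0 without vector replicate 3, without HIF2α-ko replicate 2 or without HIF2α-ko replicate 3, and 2 without vector replicate 2. It was 3 after median ratio scaling, 2 after quantile normalization, 2 without the filter and 8 without replicate 1 of every group. In the last of these fits 1875 of 11488 genes were called lower. Every change against vector kept its sign under each of these settings. Median ratio scaling moved the median change of all genes in HIF1α-ko from 0.18 to 0.01, and the calls over all genes from 1029 lower and 2031 higher to 1545 lower and 1285 higher. In HIF1α/2α-ko it moved the median from 0.21 to -0.00 and the calls from 1741 lower and 3732 higher to 2698 lower and 2760 higher, and the members called lower stayed at 10 and 9.

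The single knockouts were next compared with each other. AURKA, BUB1, BUB1B and CDK1 were lower in HIF1α-ko than in HIF2α-ko, 4 of 10 members, beside 7.37% of all genes. The differences (HIF1α-ko minus HIF2α-ko) were -0.96 ± 0.25 for AURKA (adjusted p = 0.0162), -0.62 ± 0.18 for BUB1 (adjusted p = 0.0286), -0.63 ± 0.18 for BUB1B (adjusted p = 0.0238) and -0.76 ± 0.25 for CDK1 (adjusted p = 0.0418). Replicate 1 deviated from replicates 2 and 3 in a like way in the 3 knockout groups. A fit of these 9 libraries blocked on the replicate number had 7 members lower, beside 12.7% of all genes in that fit, with PLK1 (-0.80, adjusted p = 0.0035), AURKB (-0.75, adjusted p = 0.00375) and NEK2 (-0.65, adjusted p = 0.0108) added. Without the block the intervals of these differences were -1.93 to 0.33 for PLK1, -1.48 to -0.03 for AURKB and -1.27 to -0.03 for NEK2. The count was 0 without HIF1α-ko replicate 2 or 3 or without HIF2α-ko replicate 1, 2 without HIF2α-ko replicate 2, 1 without HIF2α-ko replicate 3 and 7 without HIF1α-ko replicate 1. For MELK the difference was -0.04 (95% interval -0.47 to 0.38). Over all genes, 875 of 11685 were lower in the fit without HIF1α-ko replicate 1.

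The dual knockout was then set against HIF1α-ko, from which by its label it differs in the loss of HIF2α. Between these groups EPAS1 changed by -1.18 (limma adjusted p = 0.000153) and HIF1A by 0.64 (adjusted p = 0.0287). By limma 0 members were lower in the dual knockout than in HIF1α-ko, and 0 were lower at an unadjusted p under 0.05. MELK was higher by 0.58 ± 0.20 (adjusted p = 0.0429), 1 of 10 members beside 17.7% of all genes, and at an unadjusted p under 0.05 there were 3 members higher. With the replicate block on the knockout groups 5 members were higher, beside 29% of all genes in that fit, namely MELK (adjusted p = 0.00754), PLK1 by 0.77 (adjusted p = 0.00375), AURKA by 0.57 (adjusted p = 0.0313), CDK1 by 0.55 (adjusted p = 0.0105) and NEK2 by 0.61 (adjusted p = 0.0137). The MELK difference lost its call after median ratio scaling (adjusted p = 0.0865) and quantile normalization (0.136), without the filter (0.0723), and without any 1 of 9 libraries, with adjusted p-values from 0.0524 to 0.161. Without HIF1α-ko replicate 1 there were 3 members higher (AURKA, BUB1B and CDK1), beside 1531 of 11685 genes in that fit.

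Against HIF2α-ko, from which by its label it differs in the loss of HIF1α, 1 member was lower and 1 higher. HIF1A mRNA itself was not called different between these groups (-0.19, 95% interval -0.62 to 0.23, limma adjusted p = 0.453). PLK4 was lower in HIF1α/2α-ko than in HIF2α-ko (-0.44 ± 0.17, adjusted p = 0.0463), 1 member beside 12.9% of all genes, and MELK was higher by 0.54 ± 0.20 (adjusted p = 0.0397), 1 member beside 33.5% of all genes. The replicate block added AURKB among the lower members (-0.60, adjusted p = 0.00624), with 19% of all genes lower in that fit. Both scalings ended the MELK call (adjusted p = 0.293 and 0.51) and called 3 members lower. Over all 11731 genes, median ratio scaling called 2558 lower and quantile normalization 2614. The PLK4 call was lost without the filter (adjusted p = 0.0542) and without any 1 of 7 knockout libraries (adjusted p = 0.0581 to 0.121), and the MELK call without any 1 of 6 (adjusted p = 0.051 to 0.158). For PLK1 the difference was -0.03 (95% interval -1.16 to 1.10), for NEK2 -0.04 (-0.66 to 0.58) and for TTK -0.04 (-0.49 to 0.41). Differences of these genes within these bounds were not excluded.

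The dual knockout was compared with the sum of the single ones. The single changes and the dual change were all measured from the same 3 vector libraries. A shift common to those libraries would enter the interaction, and this was not tested. For 7 of 10 members the change in HIF1α/2α-ko was smaller in size than the sum of the HIF1α-ko and HIF2α-ko changes (interaction above 0, limma adjusted p under 0.05), where 13.2% of all genes had an interaction called above 0. For PLK1 the single changes summed to -4.52 and the dual change was -1.89, an interaction of 2.63 ± 0.73 (adjusted p = 0.0259). For NEK2 the sum was -2.89 against -1.16 (interaction 1.73 ± 0.40, adjusted p = 0.0113), and for CDK1 -2.71 against -1.18 (interaction 1.53 ± 0.35, adjusted p = 0.0109). The interaction was 1.45 for AURKA (adjusted p = 0.0138), 1.13 for BUB1 (adjusted p = 0.0109), 1.11 for BUB1B (adjusted p = 0.0107) and 1.22 for MELK (adjusted p = 0.0101). It did not pass for TTK (0.85, 95% interval 0.21 to 1.49, adjusted p = 0.0577), AURKB (0.65, -0.38 to 1.68) or PLK4 (0.28, -0.23 to 0.80). The PLK1 interaction lost its call without any 1 of vector replicates 2 and 3, HIF1α-ko replicates 2 and 3 and HIF2α-ko replicates 2 and 3 (adjusted p = 0.0584 to 0.0624), and without the filter (0.0965). No interaction was called below 0 among the members, and 0 were so at an unadjusted p under 0.05.

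**Figure D3:**
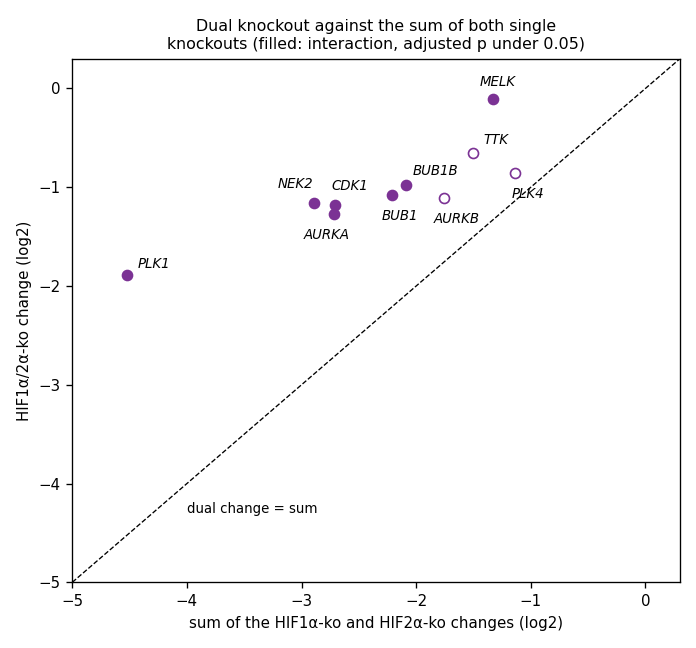
Change in HIF1α/2α-ko against the sum of the HIF1α-ko and HIF2α-ko changes (log2 of TPM + 1, each from vector) for the 10 mitotic kinases; the dashed line marks equality and filled points have an interaction with a limma adjusted p under 0.05. All 10 points lie above the line, from PLK4 nearest to it (interaction 0.28) to PLK1 (2.63).

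The members varied together across libraries. Pearson's r of log2(TPM + 1) over the 12 libraries had a median of 0.877 over the 45 pairs of members (0.309 to 0.987), which includes the differences between groups. After subtracting the group means it had a median of 0.638 (0.161 to 0.965). These are descriptions, since the points share libraries, scaling and groups. MELK had the lowest median r with the other members, 0.631, and BUB1 and CDK1 were the closest pair. Replicate 1 was the highest library for 10, 9 and 7 of the 10 members in the 3 knockouts, but the highest for only 1 member in vector, where it was the lowest for 4. Its part in the results was not tested beyond the values given without it. The genes outside the family whose pattern was most like the mean standardized level of the members were CCNA2 (r = 0.993 over 12 libraries), KIF23 (0.989), TPX2 (0.988), PRC1 (0.986) and TOP2A (0.986).

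Because TPM compares genes per length within a library, each kinase was also set against the mean of the other 9 (log2 of TPM + 1). MELK differed from the others by -0.95, -1.35 and -1.62 in the vector libraries and by -0.34, -0.19 and -0.32 in HIF1α/2α-ko, and its mean level was the eighth of the 10 in vector and the fifth in HIF1α/2α-ko. In HIF1α-ko the MELK difference was -0.84, -0.16 and -0.42, and in HIF2α-ko, -0.96, -1.10 and -1.16. PLK1 moved the other way: it lay 3.96, 4.98 and 4.70 above the others in vector and 3.82, 2.54 and 3.19 above them in HIF1α-ko. BUB1 differed little between groups, at -0.41 on average in vector and -0.39, -0.34 and -0.47 in the 3 knockouts. The pseudocount of 1 understates falls of low members such as TTK and PLK4, so these shifts also depend on level. These differences describe the libraries and were not tested.

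**Figure D4:**
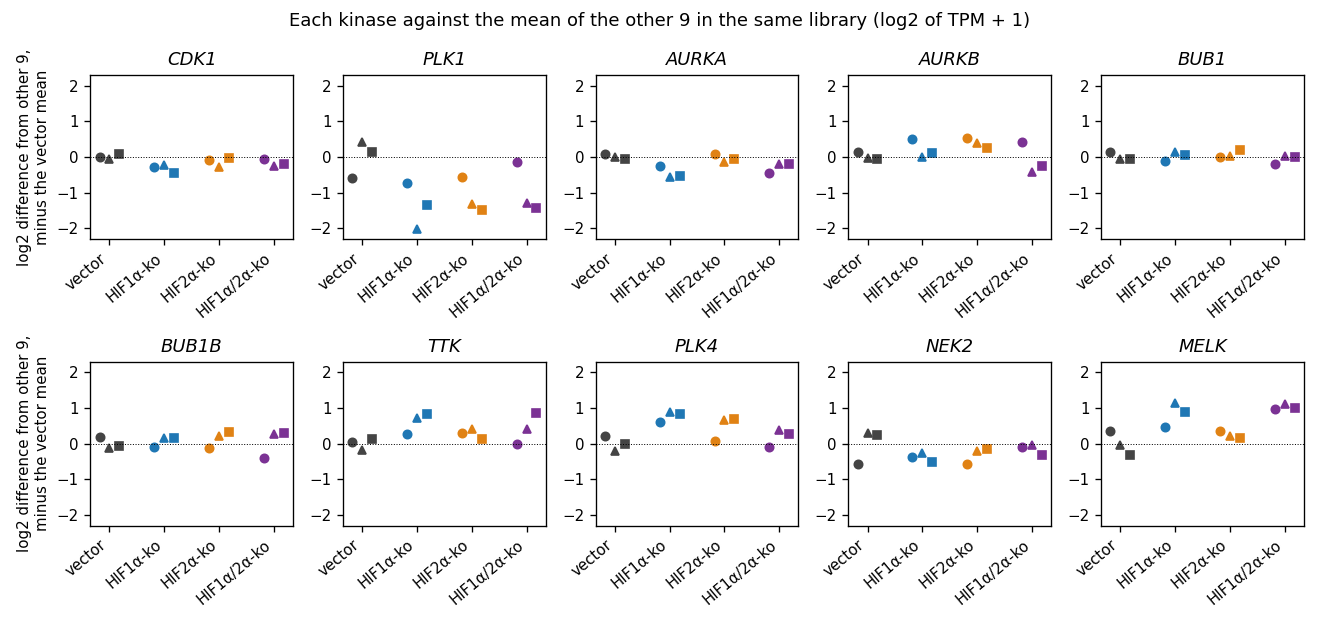
Log2 (TPM + 1) of each mitotic kinase minus the mean of the other 9 in the same library, set to 0 at the mean of the vector libraries; circles, triangles and squares are replicates 1, 2 and 3. MELK lies above its vector libraries in all 3 HIF1α/2α-ko libraries, PLK1 lies mostly below, and BUB1 stays near 0.

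Most activators and partners of these kinases fell in HIF1α-ko and in the dual knockout. Of 18 kinase activators and partners, 17 were tested, and 15, 7 and 14 of them fell in the 3 knockouts (median log2 changes -1.23, -0.61 and -0.98). The HIF2α-ko count was 1 after median ratio scaling and 4 after quantile normalization. Beside this list and those below, 8.77%, 5.89% and 14.8% of all genes fell and 17.3%, 5.07% and 31.8% rose. TPX2, the activator of AURKA, measured 69.0, 72.9 and 85.6 TPM in vector and 29.2, 14.0 and 13.2 in HIF1α-ko. Its log2 changes were -2.04, -1.23 and -1.52, each ± 0.31 (adjusted p = 0.00115, 0.027 and 0.00174). CCNB2, a cyclin partner of CDK1, changed by -1.40, -0.89 and -0.98, each ± 0.21 (adjusted p = 0.000917, 0.018 and 0.0021). BORA, which lets AURKA activate PLK1, fell by 1.00 ± 0.20 in HIF1α-ko (adjusted p = 0.00391) and changed by -1.07 ± 0.20 in the dual knockout (adjusted p = 0.000809), while -0.53 in HIF2α-ko did not pass (adjusted p = 0.101).

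The inhibitors and opposing phosphatases did not move as a block: of 15 tested, 3, 1 and 3 fell in the 3 knockouts, while 1 rose in HIF1α-ko and 3 rose in the dual knockout, where 31.8% of all genes did. PKMYT1, an inhibitory kinase of CDK1, changed by -1.10, -0.93 and -1.10, each ± 0.26 (adjusted p = 0.01, 0.0389 and 0.00439). WEE1, the other such kinase, changed by -0.96 ± 0.21 in HIF1α-ko (adjusted p = 0.00633), while its change of -0.30 in HIF1α/2α-ko did not pass (adjusted p = 0.247). GADD45A, a stress-induced inhibitor of CDK1, rose by 1.32 ± 0.16 in HIF1α/2α-ko (adjusted p = 4.57e-05), from 34.9 to 42.1 TPM in vector to 83.1 to 119.5 TPM. CDKN1A, which encodes p21, rose there by 1.15 ± 0.27 (adjusted p = 0.00423), with 1 of the 3 libraries, at 193 TPM, close to the highest vector library at 173 TPM and the others at 472 and 489 TPM. In the single knockouts the changes of GADD45A were -0.08 and 0.07 and those of CDKN1A 0.14 and 0.21, with none passing.

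Of 20 related kinases outside the members 15 were tested, and 2, 1 and 3 of them fell in the 3 knockouts while 2, 2 and 4 rose, around medians of -0.02, -0.11 and -0.02, and 17.3%, 5.07% and 31.8% of all genes rose. PLK3, a stress-responsive relative of PLK1, rose by 1.45, 1.55 and 2.91, each ± 0.38 (adjusted p = 0.0167, 0.0239 and 8.42e-05). Its vector libraries were uneven, at 14.2 TPM in replicate 1 against 3.05 and 3.77, and the HIF1α/2α-ko libraries measured 67.4, 42.2 and 41.5 TPM. PLK2, another stress-responsive relative, measured 35.8, 11.7 and 13.5 TPM in vector and 68.0, 43.4 and 46.7 TPM in HIF1α/2α-ko, a rise of 1.47 ± 0.37 (adjusted p = 0.00608). CIT, the citron kinase of cytokinesis, changed by -1.58, -0.90 and -1.49, each ± 0.30 (adjusted p = 0.00327, 0.076 and 0.00154), with HIF2α-ko not passing. PBK changed by -0.97, -0.58 and -0.58, each ± 0.24 (adjusted p = 0.0122, 0.143 and 0.0659), passing in HIF1α-ko alone. NEK6 changed by -0.13, -0.76 and -1.13, each ± 0.14 (adjusted p = 0.507, 0.00667 and 4.95e-05), passing in HIF2α-ko and the dual knockout.

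Of 14 partners of BUB1, BUB1B and TTK in the spindle checkpoint 13 were tested, and 6, 1 and 4 fell in the 3 knockouts, with 1 higher in the dual knockout. NDC80, the outer kinetochore protein that grips microtubules, changed by -1.01, -0.76 and -0.97, each ± 0.21 (adjusted p = 0.0059, 0.0419 and 0.00282). Its HIF2α-ko call, the 1 of this list, was lost after median ratio scaling (adjusted p = 0.0632) and quantile normalization (0.0816). ZWINT, a kinetochore scaffold protein, changed by -0.81, -0.58 and -1.25, each ± 0.26 (adjusted p = 0.0373, 0.175 and 0.00179). CDC20, the target of the checkpoint, changed by -1.41, -0.68 and -0.28, each ± 0.31 (adjusted p = 0.00657, 0.178 and 0.469), passing in HIF1α-ko alone. Of 19 genes of mitotic exit and kinase turnover, 5, 3 and 2 fell in the 3 knockouts and 4, 1 and 4 rose. Over all genes 8.77%, 5.89% and 14.8% fell and 17.3%, 5.07% and 31.8% rose, so both dual knockout counts lay under the share of all genes. FBXO5, the inhibitor of the anaphase-promoting complex, changed by -1.15, -0.95 and -1.05, each ± 0.25 (adjusted p = 0.00627, 0.0298 and 0.00422). ANAPC11, a subunit of that complex, rose by 0.77, 0.79 and 0.69, each ± 0.13 (adjusted p = 0.00202, 0.00468 and 0.00108). ANAPC7, another subunit, rose by 1.24 ± 0.17 in the dual knockout (adjusted p = 0.00013). Its changes of 0.27 in HIF1α-ko and -0.43 in HIF2α-ko did not pass (adjusted p = 0.265 and 0.14).

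Among the regulators of mitotic gene transcription, 19 of 22 were tested, and 3, 2 and 5 of them fell in the 3 knockouts, while 1 rose in HIF1α-ko and 6 in the dual knockout, the latter close to the 31.8% of all genes. FOXM1, the activator of late cell cycle genes, measured 56.8, 83.8 and 198 TPM in vector and 34.7, 21.0 and 22.2 TPM in HIF1α-ko. In HIF2α-ko cells it stood at 45.0, 35.9 and 34.2 TPM, in HIF1α/2α-ko cells at 37.1, 46.3 and 46.5 TPM. Its log2 changes were -1.91, -1.34 and -1.17, each ± 0.35 (adjusted p = 0.00287, 0.0299 and 0.0159), although vector replicate 3 stood far above the other vector libraries. NFYC, a subunit of the CCAAT-binding complex, changed by -0.62, -0.56 and -0.79, each ± 0.13 (adjusted p = 0.00518, 0.0169 and 0.000371). E2F4, which acts mainly as a repressor of cell cycle genes, rose by 0.66 ± 0.20 in HIF1α-ko (adjusted p = 0.0309) and by 1.90 ± 0.20 in HIF1α/2α-ko (adjusted p = 1.93e-05). Its vector libraries were uneven, at 36.3, 23.4 and 19.5 TPM, against 41.2, 40.2 and 41.1 TPM in HIF1α-ko. After median ratio scaling or quantile normalization 0 regulators were called higher in HIF1α-ko, so that E2F4 call was lost.

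Of 11 general proliferation markers, 4, 2 and 5 fell in the 3 knockouts, while 1 rose in HIF1α-ko and 2 in the dual knockout (medians -0.31, -0.36 and -0.51). Over all genes 8.77%, 5.89% and 14.8% fell, and 17.3% rose in HIF1α-ko and 31.8% in the dual knockout. The markers named next were picked by smallest p and do not stand for the list. MKI67, the gene of the Ki-67 antigen, changed by -1.85, -1.08 and -1.57, each ± 0.29 (adjusted p = 0.00129, 0.0339 and 0.000874). TOP2A, the topoisomerase of late S phase and mitosis, changed by -1.68, -0.88 and -1.31, each ± 0.24 (adjusted p = 0.000819, 0.0374 and 0.000916). TYMS, an enzyme of thymidine synthesis, changed by -1.84, -0.15 and -1.32, each ± 0.27 (adjusted p = 0.000846, 0.763 and 0.00157), with HIF2α-ko not passing. In HIF2α-ko the call of MKI67 was kept after median ratio scaling (adjusted p = 0.0482) and lost after quantile normalization (0.0617), and that of TOP2A was lost under both (0.0651 and 0.0866). Of the other list genes named as called in HIF2α-ko, PKMYT1 lost its call under both scalings, and TPX2, CCNB2 and FBXO5 under 1 of them. The part of proliferation in the kinase results was not tested.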

How the data were processed

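The authors deposited TPM values per gene, 1 column per library and without pooling. The submitters' processing notes name FastQC 0.11.2, Trimmomatic 0.36, HISAT2 2.0, bedtools 2.26.0 and the build GRCh38; the counting tool and the annotation are not given in the sources used here. Columns summed to 999955 to 999982, so no depth, counting interval or count model was available. All 12 columns were used. Symbols were matched for 20148 genes from a gene table and 76 from GENCODE 29, with 39 left without; gene positions come from GENCODE 29. The 11731 genes with at least 1 TPM in at least 3 libraries were fitted as log2(TPM + 1) with limma 3.58.1 in R 4.3.3 (mean-variance trend, all 4 groups in 1 model), which understates changes of low genes. Unless another setting is named beside it, an adjusted p is from this fit, with Benjamini-Hochberg adjustment within a contrast and a threshold of 0.05; lists were only counted. The scripts were tested on simulated data.

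The members and lists were chosen with earlier results of these data known. Named genes were the 10 members, HIF1A, EPAS1, from every list the 2 genes of smallest p for HIF1α-ko against vector and the 2 for the dual knockout (duplicates once) and the 5 genes most like the members; PLK2 was added after its values were seen. Same-numbered libraries deviated together in the knockout groups (r = 0.196 to 0.508 over 9 pairs), but not with vector (-0.0265 to 0.163), and no source says what a number marks. The main fit had no replicate term, so its comparisons between knockouts do not use this pairing. Fits with the replicate block were alternatives. Replicates 2 and 3 of different knockout groups also deviated together (r = 0.158 to 0.302), and replicate 1 opposite to both (-0.416 to -0.269), so the block carries mostly replicate 1 against the others. Replicates were not identical (r = 0.966 to 0.992). Alternatives were a pseudocount of 0.1, other filters, scalings and fits, the replicate block, a log2 change of at least 1 and each library left out. Leaving out replicate 1 of every group was added after seeing the data. Not every matched promoter site is reported here.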

Additional observations from a re-analysis of the deposited data

Results flagged for a closer look

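For 7 of the mitotic kinases the change in the dual knockout differed from the sum of the single changes, by limma's interaction (log2 of TPM + 1). The values were PLK1 2.63, NEK2 1.73, CDK1 1.53, AURKA 1.45, MELK 1.22, BUB1 1.13 and BUB1B 1.11, where 13.2% of all genes were called above 0. The PLK1 call was lost in some fits with 1 library left out. A shift common to the vector libraries would enter all of these values, and this was not tested. HIF1A mRNA had an interaction of 1.15 itself (adjusted p = 0.0131), and its part in these values was not tested. With 3 libraries in each group, no single library was screened for standing apart from its group.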

How the results depend on the processing

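Against vector, the number of members called lower in HIF1α-ko (10) was 5 with a mean TPM of at least 5, which left 5 members to test, 9 without the filter, 7 at a log2 change of at least 1, and 7 to 10 with 1 library left out. In HIF2α-ko (6) it was 2 without the filter, 3 after median ratio scaling, 2 after quantile normalization, 2 at a log2 change of at least 1, and 0 to 7 with 1 library left out. In HIF1α/2α-ko (9) it was 5 at a mean TPM of at least 5, 8 without the filter, 8 with the groups compared only, 6 at a log2 change of at least 1 (without BUB1B, PLK4 and TTK) and 7 to 9 with 1 library left out. TTK was not tested without any 1 vector library or without replicate 1 of every group. In the fit without replicate 1 of every group, 1490 of 11488 genes were lower in HIF1α-ko than in HIF2α-ko. For HIF1α/2α-ko against HIF1α-ko, 3333 genes were higher in that fit. HIF1α-ko against HIF2α-ko (4 lower) gave 7 with the replicate block on the knockout groups, 0 at a log2 change of at least 1, 8 without replicate 1 of every group and 0 to 7 with 1 library left out. HIF1α/2α-ko against HIF1α-ko (1 higher) gave 5 with the replicate block, 7 without replicate 1 of every group, 0 to 3 with 1 library left out, and 0 without the filter, at a mean TPM of at least 5, under both scalings and at a log2 change of at least 1. Against HIF2α-ko, the lower count (1) was 3 under both scalings, 2 with the replicate block and without replicate 1, 0 without the filter, at a mean TPM of at least 5 and at a log2 change of at least 1, and 0 to 1 with 1 library left out. The higher count (1) was 0 under these last 3 settings, under both scalings, with the groups compared only, and 0 to 1 with 1 library left out. The interaction count (7) was 4 at a mean TPM of at least 5 and 6 to 8 with 1 library left out. With the block on all 4 groups the counts against vector were 10, 7 and 9. Over all genes, median ratio scaling turned 1509 lower and 3933 higher calls of HIF1α/2α-ko against HIF2α-ko into 2558 and 2651, 865 and 2084 of HIF1α-ko against HIF2α-ko into 1312 and 1034, and 862 and 1552 interactions into 1123 and 1301. Quantile normalization turned 1246 and 2076 of HIF1α/2α-ko against HIF1α-ko into 1826 and 1822.

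Sign reversals were limited to comparisons between knockouts, none of them called. In HIF1α/2α-ko against HIF1α-ko, PLK4 reached 0.00 and AURKB -0.02 after quantile normalization, PLK4 -0.25 to 0.04 and AURKB -0.19 to 0.52 with 1 library left out, and PLK4 0.05 without replicate 1. Against HIF2α-ko, with 1 library left out, PLK1 was -0.50 to 0.37, TTK -0.21 to 0.11 and NEK2 -0.17 to 0.07. In HIF1α-ko against HIF2α-ko, MELK was -0.18 to 0.15 with 1 library left out and 0.07 without replicate 1. The causes were not tested. Over single members in all comparisons, 708 results kept their direction and side of the threshold with 1 library left out, while 86 were weaker, 12 stronger and 13 reversed. Under the other settings these were 598, 44, 32 and 4. TPM keeps no depth, so precision rests on 3 libraries a group.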
